A study of Mus musculus with 1037 samples.

Results

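Retinoid X receptors (RXRs) and retinoic acid receptors (RARs) are nuclear receptors that bind DNA as heterodimers, 1 RXR with 1 RAR. Such a dimer sits on paired copies of a short half-site in target genes, holds corepressors there when it has no ligand, and exchanges them for coactivators when retinoic acid, a derivative of vitamin A, binds. In skin, retinoic acid acts on the growth, differentiation and lipid handling of epidermis and hair follicles. The 6 genes that encode these receptors in the mouse, Rxra, Rxrb, Rxrg, Rara, Rarb and Rarg, were taken by their Ensembl identifiers from a table of 55335 genes, and all 6 were found. Of these, 5 reached 100 counts over the 463 cells that passed the filter, and Rxrg, with 4 counts, did not.

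The cells were hair follicle epithelial cells of wild-type mouse skin, sorted singly into wells and sequenced by Smart-seq2, which makes a full-length cDNA library of each cell. They came from the outer root sheath (ORS), the outer epithelial layer of the follicle that holds its stem cells, at AnaVI, the last stage of hair growth, and at CatVI and CatVII, late stages of the regression that follows. The AnaVI sorts were LOS, from the lower ORS, and MOS and UOS, both labelled upper-middle ORS. CatVI was represented by the upper ORS plates titled P17f, of which pl1 and pl2 were titled PhagoHFSC alive, pl3 and pl4 NonPhagoHFSC alive, pl5 PhagoHFSC apop and pl6 NonPhagoHFSC apop. CatVII was represented by the upper ORS sorts OSalive and OSapop. The day in the P17f titles is 17, and what the letter f stands for is not stated. Cells of several mice were pooled at each stage before the sort, no animal is named, and the sort scheme of the study kept cells with the surface proteins CD34 and Itga6 and without Sca1, CD31, CD117, CD140a and CD45. Each sort or plate is therefore 1 sample with no replicate, no test was made, and stage, region, sort and plate cannot be told apart. Of the groups with cells that passed the filter, only pl1 and pl2 share all of stage, region and sort name. The difference within this pair is the only measure of the spread between samples used here. MOS and UOS share stage and region but not the sort name. Cd34 had a count in 52.6% of the cells of MOS and 94.6% of UOS, so their difference can also be one of the cells sorted.

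A cell passed with 2000 or more detected genes. This left 39 cells of LOS, 38 of MOS, 83.6% of UOS (22 cells failed), 19 of pl1, 9 of pl2, 15 of pl5, 14 of pl6, 80.1% of OSalive (31 cells failed) and 92 of OSapop, and none of pl3 or pl4. The total gene count of a group ranged from 1840012 in pl6 to 287377663 in OSalive, and 1 gene row took between 56.3% and 66.5% of the counts of every group. Levels are in CPM: a gene's counts were added up over the cells of a sort or plate and expressed per 1000000 of all gene counts there, with exact 95% Poisson intervals in parentheses. The intervals cover the counting error of reads alone. They can be too narrow even for that, because the reads carry no molecular identifiers and several can stem from 1 molecule. The 7 markers of ORS and bulge (Krt5, Krt14, Krt15, Sox9, Lhx2, Itga6 and Cd34) were all above 0 in each group. They summed to between 1006 CPM in pl2 and 5945 CPM in pl5. Cd34 alone stood at 1.46 CPM in pl1, 9.71 in pl2, 1.78 in pl5 and 2.17 in pl6. It stood at 80.6 CPM in UOS, 111.1 in OSalive, 101.9 in OSapop, 24.9 in LOS and 21.5 in MOS. Cells with a Cd34 count made up 5.26% to 11.1% of the plates and 94.6% of UOS. The part of this in the ratios of the plates was not tested. Markers of other cell types were also present. The 3 fibroblast markers summed to 1120 CPM in LOS, 271.7 CPM in UOS and 2.89 to 158.2 CPM in the other groups, and the 3 melanocyte markers summed to 150.6 CPM in pl2, 126.5 CPM in LOS and at most 10.6 CPM elsewhere. The inner root sheath markers Krt71 and Gata3 summed to 470.7 CPM in UOS, of which Krt71 made up 432.1 CPM with a count in 19.6% of the cells, against 25.4 CPM in MOS, 38.96 CPM in OSalive and 22.5 to 109.3 CPM over the other groups. The interfollicular markers summed to 41.995 CPM in UOS and at most 9.89 CPM elsewhere. Immune markers stood at no more than 23.9 CPM and endothelial markers at no more than 51.9 CPM, both highest in LOS.

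Rarb is itself a textbook target of retinoic acid, so the promoters of the receptor genes are shown for the paired half-sites that RXR and RAR occupy. RefSeq windows of 300 bases (250 before and 50 after a transcript start, build GRCm38.p6) were found for all 6 genes, 13 windows in all. They were searched on both strands for 4 spellings of the half-site, the consensus AGGTCA, its variant AGTTCA, the spelling GGGTCA and the spelling GGTTCA, and for direct repeats of 2 of them with 0 to 8 bases between, so that the half-sites of a repeat do not overlap. A half-site stood in 7 of the 13 windows, against 43.7% of all 32851 windows of this length. A direct repeat stood in 1 window only, that of Rarb, with a spacer of 5 bases and its first base 53 bases before the transcript start. This arrangement was present in 0.0974% of all windows, the repeat with a spacer of 1 in 0.222% and that with a spacer of 2 in 0.268%. The share of all windows with a repeat at any spacer from 0 to 8, as searched here, was not taken. These shares of single spacers therefore do not measure how rare a hit of this search is. The Rarb window, 1 of Rxra and 1 of Rarg follow, with half-sites on either strand in capitals and, in Rarb, the spacer of the repeat in capitals as well. The printed windows of Rxra and Rarg are those with a half-site. The other window of Rxra and the other window of Rarg, not printed, held none. A match is a run of letters and no measured binding site.
Rarb, chr14:16575427-16575726, minus strand: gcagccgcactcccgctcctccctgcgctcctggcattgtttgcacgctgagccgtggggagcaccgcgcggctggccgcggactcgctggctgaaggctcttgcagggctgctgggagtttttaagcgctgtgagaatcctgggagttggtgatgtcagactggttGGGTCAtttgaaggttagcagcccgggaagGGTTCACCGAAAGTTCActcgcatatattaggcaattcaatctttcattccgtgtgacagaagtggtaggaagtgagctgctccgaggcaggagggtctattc
Rxra, chr2:27709042-27709341, plus strand: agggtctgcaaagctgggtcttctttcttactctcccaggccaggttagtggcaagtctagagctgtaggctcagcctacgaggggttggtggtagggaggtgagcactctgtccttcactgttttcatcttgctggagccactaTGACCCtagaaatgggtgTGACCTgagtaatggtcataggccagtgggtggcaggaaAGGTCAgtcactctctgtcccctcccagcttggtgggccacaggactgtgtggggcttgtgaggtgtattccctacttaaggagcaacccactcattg
Rarg, chr15:102257473-102257772, minus strand: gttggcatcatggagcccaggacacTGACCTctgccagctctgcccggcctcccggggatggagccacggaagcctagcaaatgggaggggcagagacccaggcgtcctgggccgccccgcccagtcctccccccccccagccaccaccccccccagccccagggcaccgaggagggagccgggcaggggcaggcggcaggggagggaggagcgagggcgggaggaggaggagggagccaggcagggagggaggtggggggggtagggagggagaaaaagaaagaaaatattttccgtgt

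RXRs are the shared partners of the family. Rxra (ENSMUSG00000015846.15, chromosome 2 of GRCm39, 27566452 to 27653330, plus strand), which encodes RXRα, the main RXR of skin epithelium, was detected in every sort and plate with passing cells. In AnaVI it stood at 63.9 CPM (59.2 to 68.9) in LOS, 84.3 CPM (78.2 to 90.7) in MOS and 85.8 CPM (83.6 to 88.03) in UOS. In CatVI it stood at 119.98 CPM (110.99 to 129.5) in pl1, 40.6 CPM (32.7 to 49.8) in pl2, 103.4 CPM (94.3 to 113.3) in pl5 and 60.3 CPM (49.6 to 72.6) in pl6. In CatVII it stood at 82.3 CPM (81.2 to 83.3) in OSalive and 105.4 CPM (103.1 to 107.8) in OSapop. The CatVI plates thus held both the highest and the lowest level, and pl1 and pl2, which carry the same label, stood 2.95-fold apart. Ordered by level, the intervals of pl1 and pl5, of pl5 and OSapop, of UOS and MOS, of MOS and OSalive, of LOS and pl6 and of pl6 and pl2 overlapped, and those of the other neighbours did not. In single cells of UOS the Rxra level had a median of 87.2 CPM with quartiles of 37.2 and 126.3 CPM, and in OSalive the median was 60.05 CPM with quartiles of 32.4 and 122.55 CPM, so the middle part of the cells of UOS spanned more than the range of the 9 groups.

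Rxrb (ENSMUSG00000039656.17, chromosome 17, 34250759 to 34257376, plus strand), a broadly expressed RXR, stayed below Rxra in each group. It stood at 6.72 CPM in LOS, 4.10 CPM in MOS and 9.01 CPM (8.32 to 9.75) in UOS. The plates gave 2.37 CPM in pl1, 6.18 CPM in pl2, 7.34 CPM in pl5 and 2.72 CPM in pl6, from 5 to 33 counts each. OSalive stood at 5.76 CPM (5.48 to 6.04) and OSapop at 6.62 CPM (6.05 to 7.24), both below the interval of UOS. Rxrg (ENSMUSG00000015843.10, chromosome 1, 167425673 to 167467193, plus strand), the third RXR, known from muscle and nervous tissue, had no count in 8 of the 9 groups. A count of 0 allows up to 0.0104 CPM in OSalive and up to 2.40% of its cells with a count at this depth, which is no limit on the cells that express the gene. The 4 Rxrg counts all came from 1 cell of pl2, which held counts of all 3 melanocyte markers, 26 of Pmel, 99 of Kit and more of Dct than of either.

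RARs give the dimer its affinity for retinoic acid. Rarg (ENSMUSG00000001288.15, chromosome 15, 102143373 to 102165952, minus strand), which encodes RARγ, the main RAR of epidermis, was low in the CatVI plates and in LOS and high in the other groups. In AnaVI it stood at 45.6 CPM (41.7 to 49.9) in LOS, 74.6 CPM (68.9 to 80.6) in MOS and 81.4 CPM (79.3 to 83.6) in UOS. In CatVI it stood at 51.6 CPM (45.8 to 57.98) in pl1, 31.8 CPM (24.9 to 40.04) in pl2, 27.8 CPM (23.1 to 33.1) in pl5 and 41.8 CPM (33.03 to 52.3) in pl6. In CatVII it stood at 83.3 CPM (82.2 to 84.3) in OSalive and 109.3 CPM (106.9 to 111.7) in OSapop. All 4 CatVI plates lay below MOS, UOS and both CatVII sorts, with no overlap of the intervals, and LOS lay among the plates. The neighbours OSalive and UOS, UOS and MOS, pl1 and LOS, LOS and pl6, pl6 and pl2 and pl2 and pl5 could not be separated beyond counting error. The single-cell median of Rarg was 67.97 CPM in UOS, 79.9 CPM in OSalive and 112.6 CPM in OSapop, and in the plates it lay between 19.6 CPM in pl2 and 30.3 CPM in pl6.

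Rara (ENSMUSG00000037992.16, chromosome 11, 98818612 to 98865768, plus strand), which encodes the widely expressed RARα, was the second RAR in each group. It stood at 12.2 CPM (10.2 to 14.5) in LOS, 7.72 CPM (5.97 to 9.83) in MOS and 8.91 CPM (8.22 to 9.65) in UOS. In the plates it stood at 26.8 CPM (22.6 to 31.5) in pl1, 18.5 CPM (13.4 to 25.1) in pl2, 5.78 CPM (3.78 to 8.47) in pl5 and 16.8 CPM (11.4 to 23.9) in pl6. OSalive gave 13.1 CPM (12.7 to 13.6) and OSapop 15.9 CPM (15.0 to 16.8). The order of the plates for Rara was not that for Rarg: pl1, pl2 and pl6 were above UOS in Rara and below it in Rarg, and pl5 was below UOS in both. In pl6 the 31 counts of Rara came from 3 cells, and in pl5 1 cell held 57.7% of the 26 counts.

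Rarb (ENSMUSG00000017491.9, chromosome 14, 5650540 to 6041094, plus strand in GRCm39), which encodes RARβ, had 150 counts in 13 of the 463 cells. Its level was 1.03 CPM in LOS, 0.351 CPM in MOS, 0.966 CPM in UOS, 0.365 CPM in pl1, 2.21 CPM in pl2, 0.111 CPM in OSalive and 0.424 CPM in OSapop, and pl5 and pl6 had no count. The 3 cells with most counts held 74.7% of them. Of the 13 cells, 8 (61.5%) had immune, fibroblast, melanocyte and endothelial markers at a sum above 100 CPM, against 96 of all 463 cells (20.7%), a limit chosen after the values had been seen, and the part of those cell types in the Rarb level was not tested. The Rarb locus overlaps Top2b on the other strand, and Rarg and Rara overlap long non-coding RNAs in the annotation. The strand of a read is not marked by the library kit, so that reads from the overlaps cannot be told apart.

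**Figure D1:**
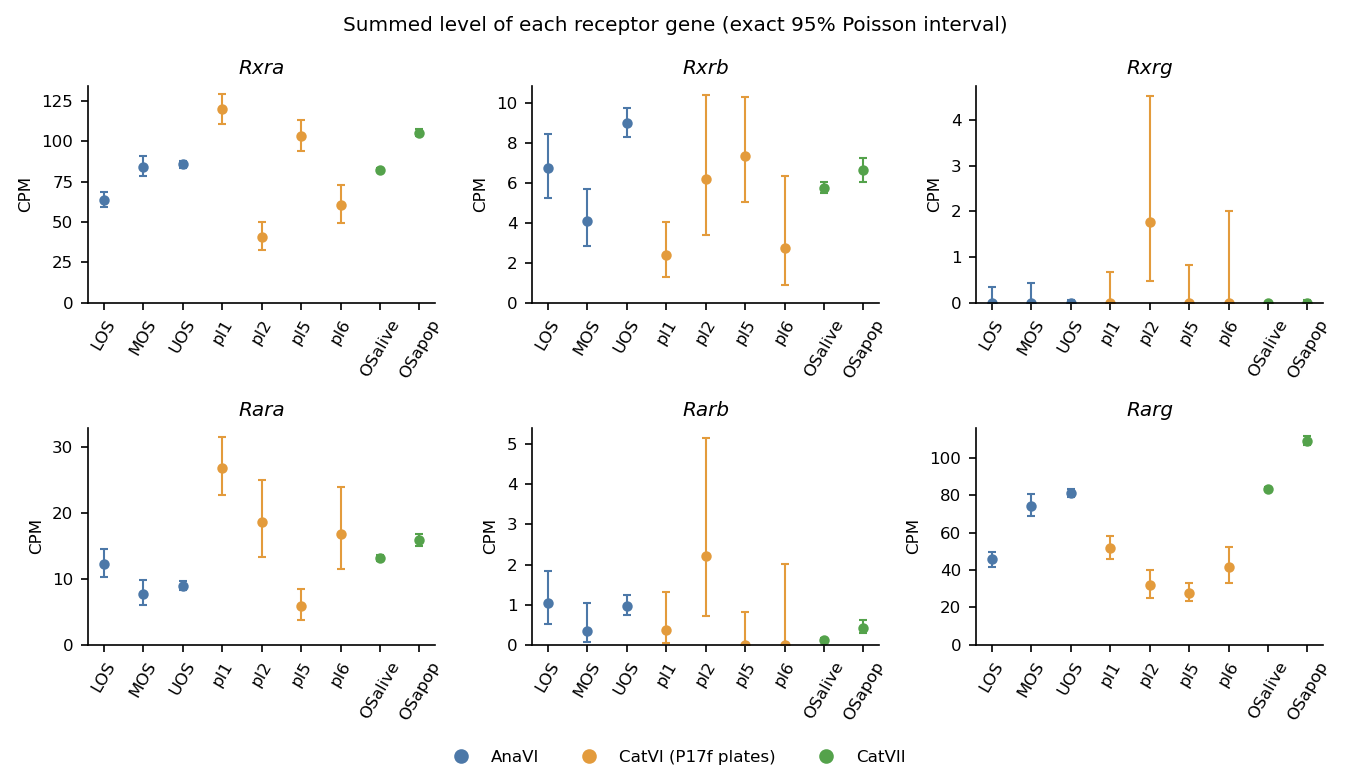
Summed level in CPM of each of the 6 receptor genes (vertical axes, a separate scale for each gene) in the 9 sorts and plates (horizontal axes), with exact 95% Poisson intervals as bars and colours for the stage. Rarg stands between 27.8 and 51.6 CPM in the 4 CatVI plates and at 83.3 and 109.3 CPM in the CatVII sorts, while Rxra ranges from 40.6 to 119.98 CPM within the plates alone.

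Levels of different genes were compared per kilobase of the canonical transcript, which is 5.47 kb for Rxra and 2.72 kb for Rarg. On this scale Rxra made up between 70.4% of the RXR total in pl2 and 96.1% in pl1, and 82.2% in UOS. Rarg made up between 65.3% of the RAR total in pl2 and 91.9% in MOS, with 91.02% in UOS, 88.5% in OSalive and 89.2% in OSapop. Rara supplied nearly all the rest, 8.11% of the RAR total in UOS, 29.6% in pl1 and 31.04% in pl2. RXRα and RARγ transcripts were thus the leading members of their families in each of the 9 groups.

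The balance between these leading members differed between groups. Per kilobase, Rarg was 1.91 times Rxra in UOS, 1.78 times in MOS and 1.44 times in LOS. It was 2.04 times Rxra in OSalive and 2.09 times in OSapop. In the plates it was 0.865 times in pl1, 1.57 times in pl2, 0.541 times in pl5 and 1.396 times in pl6, so that Rxra exceeded Rarg in pl1 and pl5 only. Within single cells that held both transcripts, Rarg was the higher per kilobase in 95 cells of OSalive (79.2%), 72 of 85 of OSapop (84.7%), 68 of 98 of UOS (69.4%), 5 of 14 of pl1 (35.7%) and 4 of 13 of pl5 (30.8%). The median of the log2 ratio over those cells was 1.23 in OSalive, 0.52 in UOS and −1.21 in pl5, with quartiles of 0.37 and 2.29 in OSalive, −0.19 and 1.76 in UOS and −1.75 and 0.01 in pl5. The quartile range of UOS overlapped those of the other two, and the ranges of OSalive and pl5 did not overlap.

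Whether a cell carries both partners of a dimer was read from cells thinned at random to 50000 counts each, which sets all cells to 1 depth. This left 428 of the 463 cells, and the 35 shallower cells, 16 of them from LOS, were left out. In UOS, 85.6% of the cells had Rxra and 83.8% had Rarg. In OSalive the shares were 86.3% and 85.5%, and in OSapop 89.4% and 90.6% of 85 cells. Without thinning they were 92.9% and 93.8% in UOS, at a median of 471277 counts a cell, 99.2% and 96.8% in OSalive, at a median of 2182588 counts, and 96.7% and 94.6% in OSapop, at 482288 counts. The lowest thinned share of Rarg was that of pl5, with 8 of 15 cells (53.3%, exact Clopper-Pearson interval 26.6 to 78.7), and the lowest of Rxra was that of pl2, with 5 of 8 cells (62.5%, 24.5 to 91.5).

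Rxra and Rarg were found together in 81 thinned cells of UOS (72.97%, 63.7 to 80.96), where 30 cells lacked 1 or both, in 92 of OSalive (74.2%, 65.6 to 81.6), where 32 did, and in 70 of 85 of OSapop (82.4%, 72.6 to 89.8). Of the AnaVI sorts, MOS had both in 25 of 32 cells (78.1%, 60.03 to 90.7) and LOS in 15 of 23 (65.2%, 42.7 to 83.6). The plates gave 11 of 18 cells in pl1 (61.1%, 35.7 to 82.7), 4 of 8 in pl2 (50%, 15.7 to 84.3), 8 of 15 in pl5 (53.3%, 26.6 to 78.7) and 8 of 12 in pl6 (66.7%, 34.9 to 90.1). All these intervals overlapped. The product of the single shares gave 79.6 cells in UOS, 91.5 in OSalive and 68.8 in OSapop, so the observed numbers were 1.02, 1.01 and 1.02 times the product. In pl1 and pl5 every cell with Rarg also had Rxra, and 6 and 7 cells had Rxra alone. Rxra was found in 17 of the 18 cells of pl1 and in all 15 of pl5, which left little or no room for another outcome.

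**Figure D2:**
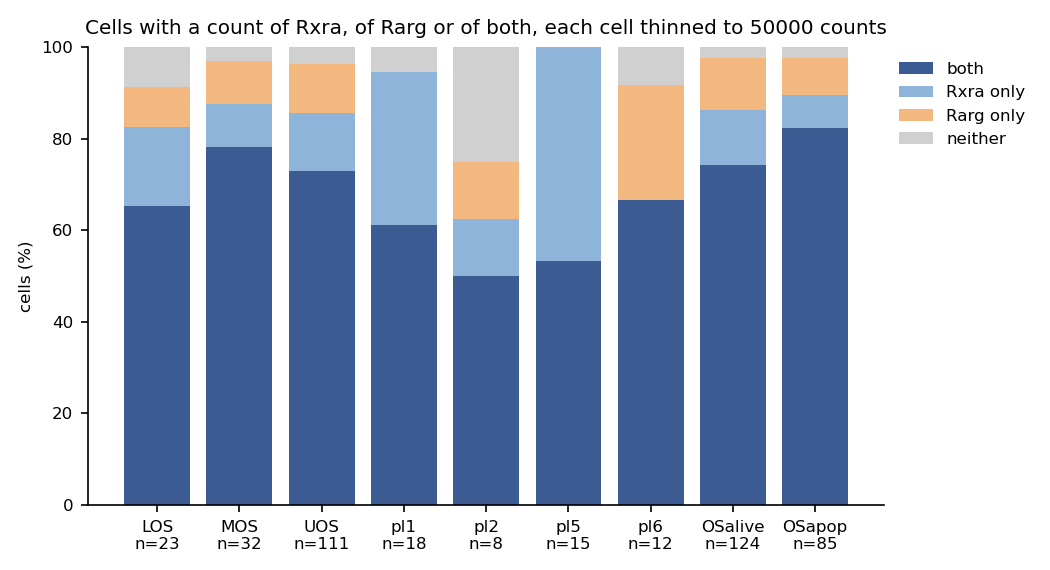
Share of cells (vertical axis, percent) with a count of both Rxra and Rarg, of 1 of them or of neither, in each sort or plate (horizontal axis, with the number of cells thinned to 50000 counts). Both were found in 72.97% of cells of UOS, 74.2% of OSalive and 82.4% of OSapop, and in 50% to 66.7% of the plates' few cells.

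The other 8 pairs of an RXR with an RAR were less frequent in UOS, OSalive and OSapop, while in pl1 Rxra was found with Rara in as many cells as with Rarg. Rxra with Rara was found in 20 cells of UOS (18.02%), 39 of OSalive (31.5%), 29 of 85 of OSapop (34.1%) and 11 of 18 of pl1 (61.1%). The interval of pl1 (35.7 to 82.7) lay above that of UOS (11.4 to 26.4), in the direction of its Rara level. Rxrb with Rarg was found in 18 cells of UOS (16.2%), 21 of OSalive (16.9%) and 18 of OSapop (21.2%). All but 3, 3 and 1 of the Rxrb cells of these sorts also had Rarg. The product of the single shares gave 17.6, 20.5 and 17.2 cells with both. Rxrb with Rara was found in 6, 11 and 5 cells of the same sorts. Pairs with Rarb or Rxrg occurred in at most 2 cells of a group. Cells with any RXR and any RAR made up 77.5% (68.6 to 84.9) of UOS, 79.8% (71.7 to 86.5) of OSalive and 84.7% (75.3 to 91.6) of OSapop. Cells with none of the 6 receptors numbered 1 in UOS, 3 in OSalive and 2 in OSapop.

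The thinned counts of Rxra and Rarg in the same cell were only loosely related. Across the thinned cells Spearman's rho was 0.18 in UOS, 0.14 in OSalive and 0.17 in OSapop over the same cells, given as a description, since cells of a sort share their pool and library preparation. The median was 4 counts of Rxra and 3 of Rarg in UOS, 3 and 3 in OSalive, and 4 and 5 in OSapop. At so few counts, counting error alone lowers rho, so these values set no upper limit on the relation of the levels.

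**Figure D3:**
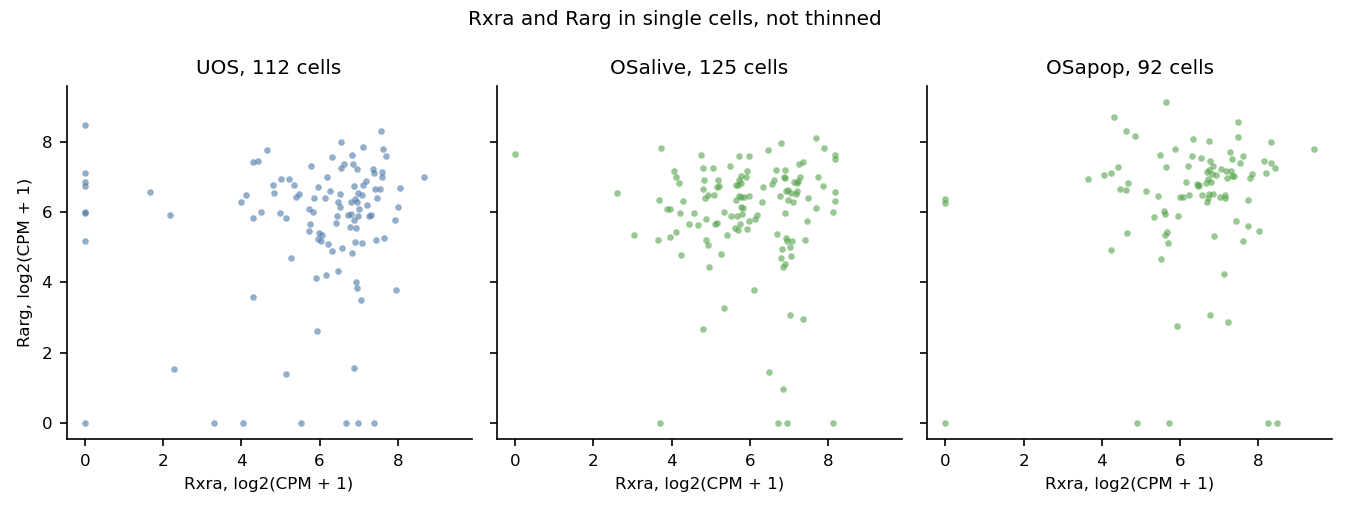
Rxra (horizontal axis) and Rarg (vertical axis), both as log2(CPM + 1), in each cell of UOS, OSalive and OSapop, without thinning, where each point is 1 cell. Most cells lie away from both axes, and the points on an axis are cells with no count of 1 gene, such as the 4 cells of OSalive without Rarg.

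Ratios between groups were taken as log2 of summed CPM for genes that reached 100 counts in the compared groups together, with exact binomial intervals, and a gene is called past 2-fold at a log2 ratio of 1 or more in size. Between the AnaVI sorts, LOS stood below UOS, at −0.42 (−0.54 to −0.31) for Rxra and −0.84 (−0.97 to −0.70) for Rarg, and above it, at 0.46 (0.17 to 0.73) for Rara, beside a median over all genes of 0.04. None of the 4 members with enough counts was past 2-fold, against 28.4% of all genes. With median-of-ratios scaling Rarg was past 2-fold, at −1.11, and with the TMM factors of edgeR at −1.12. Of the Rarg counts of LOS, 45.2% came from 1 cell, and of its Rxra counts, 25.4% came from 1 cell. Without the deepest cell of each sort, the ratio was −1.29 for Rarg and −0.13 for Rxra. In LOS, 18 of the 39 cells had markers of other cell types above 100 CPM. Rxra was at 38.1 CPM in those cells and at 90.4 CPM in the other 21, and Rarg at 56.7 and 34.2 CPM. Without such cells, left out of both sorts after the data had been seen, the log2 ratio of LOS to UOS was 0.02 for Rxra and −1.30 for Rarg. The part of the other cell types in these ratios was not tested further. MOS and UOS, which share a label for region, differed by −0.03 (−0.14 to 0.09) for Rxra and −0.13 (−0.25 to −0.01) for Rarg, beside a median over all genes of −0.31. Of the 4 members, 1 was past 2-fold, Rxrb at −1.14 (−1.67 to −0.65) from 35 counts in MOS, against 29.7% of all genes. With median-of-ratios scaling it stood at −0.97, and no member was past 2-fold.

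The comparison of OSalive with UOS sets upper ORS cells of late regression beside upper-middle ORS cells of late growth. Region differs there along with stage, so a difference cannot be given to either. Rxra differed by −0.06 (−0.10 to −0.02) and Rarg by 0.03 (−0.01 to 0.07), both small beside the quartiles of all genes at −1.05 and 0.30. Rara was higher by 0.56 (0.44 to 0.69) and Rxrb lower, at −0.65 (−0.78 to −0.51). None of the 4 members was past 2-fold, against 38.2% of all genes. The median of all genes was −0.32, and with median-of-ratios scaling it moved up by 0.46 to 0.13, which put Rxra at 0.40, Rarg at 0.49, Rara at 1.02 and Rxrb at −0.19. The sign of the Rxra ratio therefore rests on the scaling, while Rara was above the median of all genes by 0.88. Without the 5 cells of UOS and 4 of OSalive that had Krt71 and interfollicular markers at a sum above 100 CPM, left out after the data had been seen, the ratios were −0.11 for Rxra, 0.00074 for Rarg, 0.56 for Rara and −0.70 for Rxrb.

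OSapop against OSalive compares CatVII cells sorted as apop with those sorted as alive. All 4 members with enough counts were higher in OSapop, Rxra by 0.36 (0.32 to 0.39), Rarg by 0.39 (0.36 to 0.43), Rara by 0.28 (0.18 to 0.37) and Rxrb by 0.20 (0.05 to 0.35), beside a median over all genes of 0.12. None was past 2-fold, against 21.9% of all genes. Median-of-ratios scaling lowered the 4 values to between 0.03 for Rxrb and 0.22 for Rarg.

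In CatVI, the alive plates pl1 and pl2 together stood below UOS in Rarg, at −0.83 (−0.99 to −0.67), and near it in Rxra, at 0.17 (0.06 to 0.28), beside a median over all genes of −0.21. Of the 4 members, 2 were past 2-fold, Rara at 1.45 (1.21 to 1.69) and Rxrb at −1.37 (−1.98 to −0.82), against 43.2% of all genes. Taken singly, each of the 4 plates was below UOS in Rarg, at −0.66 (−0.84 to −0.49) in pl1, −1.36 (−1.71 to −1.02) in pl2, −1.55 (−1.82 to −1.29) in pl5 and −0.96 (−1.30 to −0.64) in pl6. For Rxra the plates lay on both sides of UOS, at 0.48 in pl1, −1.08 in pl2, 0.27 in pl5 and −0.51 in pl6. Rara was above UOS in pl1 at 1.59, in pl2 at 1.06 and in pl6 at 0.92, and below it in pl5 at −0.62. Rxrb was past 2-fold below UOS in pl1, at −1.93 (−2.84 to −1.14) from 13 counts, and in pl6, at −1.73 (−3.36 to −0.50) from 5 counts, but not in pl2, at −0.54 (−1.42 to 0.21) from 14 counts, or in pl5, at −0.30 (−0.85 to 0.21).

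These values stand beside the spread between plates of 1 label. From pl1 to pl2, Rxra differed by −1.56 (−1.89 to −1.25), Rarg by −0.70 (−1.09 to −0.32) and Rara by −0.53 (−1.06 to −0.03), with 1 of 3 members past 2-fold against 45.3% of all genes. Rxrb, from 27 counts in both plates, differed by 1.38 (0.19 to 2.59). The Rxra ratio of pl1 and pl2 to UOS is smaller than that spread, those of Rarg and Rxrb are of similar size, and that of Rara is larger. In pl2, 2 of the 9 cells had ORS markers below 100 CPM, and 2 had markers of other cell types above 100 CPM. Within the apop plates, pl5 against pl6 gave 0.78 (0.48 to 1.09) for Rxra and −0.59 (−1.01 to −0.16) for Rarg, with 0 of 2 members past 2-fold against 30.5% of all genes. With a minimum of 4000 detected genes a cell the Rarg ratio had the other sign, at 0.32. Between pl5 and the alive plates pl1 and pl2, Rxra differed by 0.10 (−0.07 to 0.26), Rarg by −0.72 (−1.03 to −0.42) and Rara by −2.08 (−2.73 to −1.48), with 1 of 3 members past 2-fold against 32.8% of all genes. The Rarg ratio was −0.19 without pl1 and −0.24 with cells thinned to 50000 counts. The comparisons with UOS share its cells, and those with pl1 and pl2 share theirs.

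**Figure D4:**
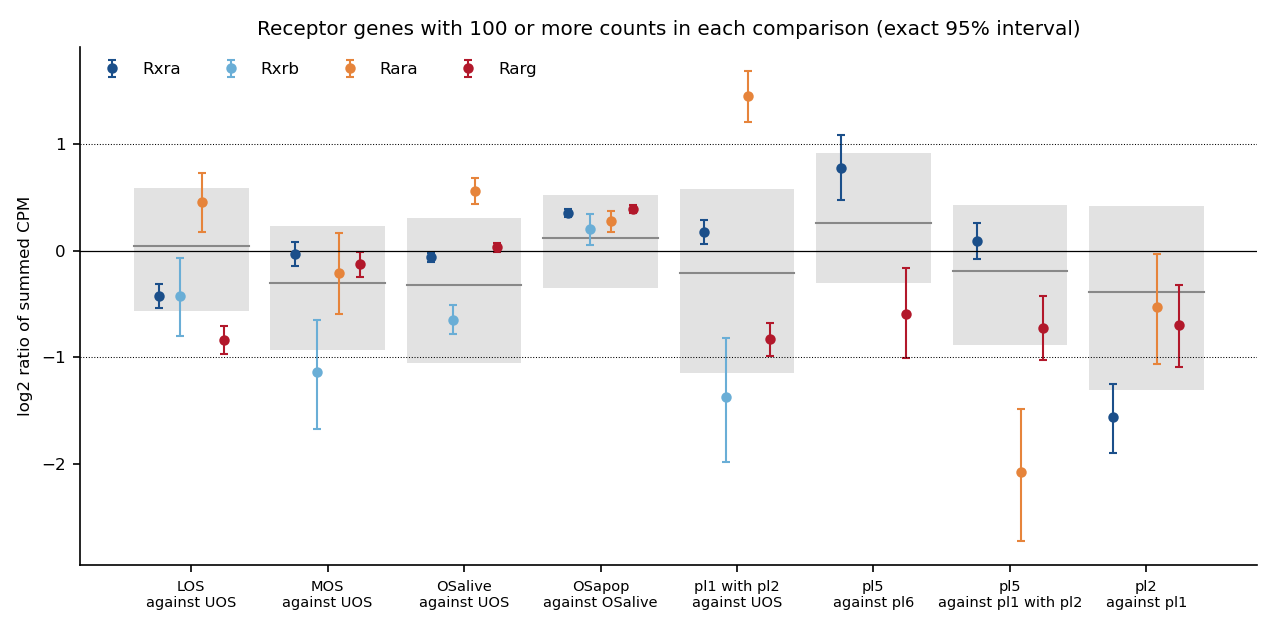
Log2 ratio of summed CPM (vertical axis) of the receptor genes with 100 or more counts in the 8 comparisons (horizontal axis), with exact 95% binomial intervals. Grey boxes span the quartiles of all genes with 100 or more counts, grey lines mark their median, and dotted lines mark 2-fold. Rarg is at −0.83 in pl1 with pl2 against UOS and at −0.70 in pl2 against pl1, and Rara at 1.45 and −0.53.

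The other genes of the receptor system were compared between OSalive and UOS in 4 lists. RXRs also pair with other nuclear receptors, and 9 of 13 listed partners had 100 counts. Of these, 2 were past 2-fold higher, against 11.5% of all genes, and 0 were past 2-fold lower, against 26.6%, with a median of 0.13. Nr4a2 stood at 0.0732 CPM in UOS (5 counts) and 1.48 CPM in OSalive, a log2 ratio of 4.34 (3.11 to 5.97), and Nr4a1, an immediate-early gene, at 32.4 and 109.2 CPM, a ratio of 1.75 (1.69 to 1.82). Nr4a1 was found in 56 cells of OSalive and 50 of UOS. The lowest ratios were those of the thyroid hormone receptor Thrb, at −0.75 (−0.96 to −0.54), and the vitamin D receptor Vdr, at −0.50 (−0.53 to −0.47). Vdr stood at 176.3 CPM in UOS and 124.5 CPM in OSalive.

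Coregulators, the proteins that a receptor dimer recruits to silence or activate its targets, lay close together. All 15 had 100 counts, 0 were past 2-fold higher, against 11.5% of all genes, and 1 was past 2-fold lower, against 26.6%. Their median was −0.01 beside −0.32 for all genes, and 0.45 beside 0.13 with median-of-ratios scaling. This was the acetyltransferase gene Kat2b, at 8.30 CPM in UOS and 2.16 CPM in OSalive, a ratio of −1.94 (−2.11 to −1.77). Next lowest was Hdac3, a deacetylase of the corepressor complexes, at −0.67 (−0.80 to −0.53). The highest were the mediator subunit Med1, at 0.48 (0.41 to 0.55), and the coactivator Crebbp, at 0.44 (0.39 to 0.49).

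Genes of retinoid supply and breakdown varied more. Of 21, 15 had 100 counts, 4 of them past 2-fold higher, against 11.5% of all genes, and 7 past 2-fold lower, against 26.6%, with a median of −0.82 beside −0.32 for all genes. Fabp5, a carrier of fatty acids and retinoic acid, stood at 34.7 CPM in 54 cells of UOS and 0.247 CPM in 7 cells of OSalive, a ratio of −7.13 (−7.50 to −6.79). Lrat, which stores retinol as esters, stood at 1.95 CPM in 11 cells of UOS, while its 8 counts in OSalive all came from 1 cell, a ratio of −6.13 (−7.37 to −5.11). Cyp26b1, which degrades retinoic acid, stood at 0.380 CPM in 3 cells of UOS and 2.59 CPM in 19 cells of OSalive, a ratio of 2.77 (2.20 to 3.39). The highest ratio, that of the retinal dehydrogenase gene Aldh1a1 at 3.08 (1.498 to 5.38), rested on 3 counts in UOS and on 1 cell of OSalive.

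Of 12 textbook targets of retinoic acid, some of which are also in the list of supply and breakdown, 8 had 100 counts. Of these, 2 were past 2-fold higher, against 11.5% of all genes, and 4 past 2-fold lower, against 26.6%, with a median of −1.60. The highest were Cyp26b1 and Crabp2, a carrier of retinoic acid, at 1.30 (0.95 to 1.68). The lowest were Lrat and the transglutaminase gene Tgm2, at 9.63 CPM in UOS and 0.174 CPM in OSalive, a ratio of −5.79 (−6.24 to −5.37). Cyp26a1, a target often used as a readout of retinoic acid, had no count in either sort. The counts past 2-fold of the 4 lists were the same with median-of-ratios scaling, under which 51.8% of all calls were higher, against 30.2% with total counts. Without the cells with Krt71 and interfollicular markers named above, the supply list had 4 genes past 2-fold higher and 6 lower, with a median of −0.46, and the targets had 2 and 3, with a median of −0.74. Fabp5 then stood at −6.89, while the 8 counts of Lrat in OSalive and the 3 of Aldh1a1 in UOS were all in the cells left out.

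**Figure D5:**
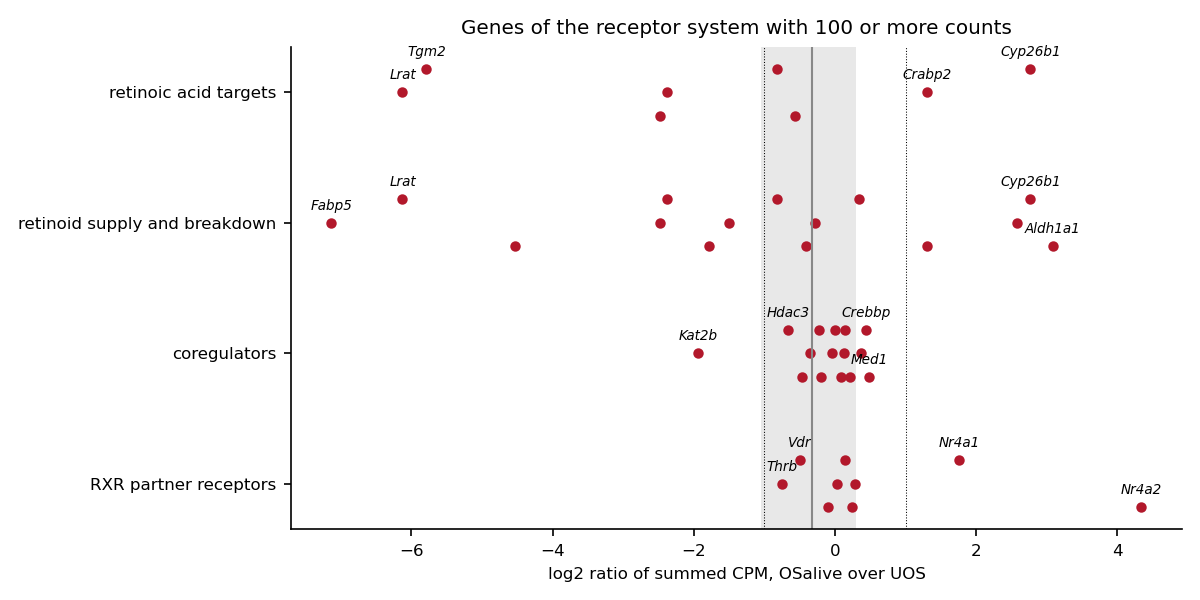
Log2 ratio of OSalive to UOS (horizontal axis) for the genes of the 4 lists with 100 or more counts (rows), where each point is 1 gene and the 2 highest and 2 lowest of each list are named. The grey band spans the quartiles of all genes (−1.05 to 0.30), the grey line their median (−0.32) and dotted lines 2-fold. Coregulators lie within the dotted lines except Kat2b at −1.94.

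The genes whose levels over the 9 sorts and plates were most like those of Rxra, by Pearson's r of log2(CPM + 1) among 4598 genes, were Snx13 (0.978), Dmxl1 (0.976) and Mgat2 (0.969). All of these were lowest in pl2 and highest in pl1, as Rxra was. In pl2 they stood at 1.77, 2.21 and 1.32 CPM, where 3 counts make 1.32 CPM. The plates pl1 and pl2 share a label, and r without them was not taken. The genes most like Rarg included Raly (0.969) and Setbp1 (0.961), both of which were highest in OSapop. Between Rxra and Rarg r was 0.42, and 1171 of the genes were more like Rxra than Rarg was. The 9 groups differ in depth and come from 3 pools of mice, so these values describe these groups only.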

How the data were processed

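Smart-seq2 libraries of 1036 sorted cells in 11 sorts and plates were analysed. According to the study's methods, the authors aligned trimmed reads with STAR 2.6 to mm39, quantified them with Salmon 1.4.0 and compiled them in R 3.6.1 with tximport, and they deposited the resulting estimated counts per gene with no normalization, for 55335 genes and 92 spike-ins. Of the nonzero values 10.9% were not whole, and all were rounded. Spike-ins were left out of totals. Samples were grouped by title and stage label. Some well positions occur in more than 1 title of UOS, OSalive or OSapop. No label says whether such wells come from separate plates, and these sorts were not split. A CatVII well whose labels name different stages was kept out, and 1 further cell has no column. Symbols, positions and transcript lengths came from the GENCODE annotation of GRCm39, in which 93.3% of the gene rows were found, and promoter sequences from RefSeq (GRCm38.p6).

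Counts of cells with at least 2000 detected genes were summed per group, and a group at 0 counts was set to 3 counts in ratios. Totals were taken over all gene rows, also those not found in the annotation. The annotated rows held between 19.3% of the counts in OSalive and 28.7% in pl2, with 25.1% in UOS. No test was made, since each group is 1 sample. The members and gene lists were chosen with earlier results of these data known. Genes named are the 6 members, the 2 highest and 2 lowest OSalive to UOS ratios of each list among genes with 100 counts over both sorts, and the 3 genes most like Rxra and Rarg, among genes with a symbol, a count in at least 75 cells and 20 CPM in a group. One gene that this rule names is not reported here. Cyp26a1 was named in addition, after its values had been seen. Thinning drew counts without replacement with a fixed seed. Wells with several cells had been screened out by the authors with a quantitative PCR, and no doublet caller was run. The scripts were tested on simulated counts. Python 3.11.15, numpy 2.4.6, pandas 2.3.3, scipy 1.17.1 and, for TMM scaling, edgeR 4.0.16 in R 4.3.3 were used. The alternatives concerned scaling, depth, detection, filters on cells and genes, the reference sort and single plates.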

Additional observations from a re-analysis of the deposited data

Results flagged for a closer look

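In the comparison of cells sorted as apop with cells sorted as alive, 2 receptor genes went opposite ways at the stages, with intervals of both stages away from 0. At CatVII, OSapop stood above OSalive in Rara by 0.28 (0.18 to 0.37) and in Rarg by 0.39 (0.36 to 0.43) on the log2 scale. At CatVI, pl5 stood below pl1 with pl2, at −2.08 (−2.73 to −1.48) for Rara and −0.72 (−1.03 to −0.42) for Rarg, where the Rarg value was −0.19 without pl1 and −0.24 with cells thinned to 50000 counts. The CatVI ratio less the CatVII ratio was −2.35 for Rara and −1.11 for Rarg. This difference was not tested, since each side is 1 sort or 1 set of plates of 1 pool. The CatVI plates compared here were all titled PhagoHFSC, while the CatVII sorts carry no such title. The other apop plate of CatVI, pl6, stood at 16.8 CPM of Rara and 41.8 CPM of Rarg. The alive plates stood at 26.8 and 51.6 CPM in pl1 and at 18.5 and 31.8 CPM in pl2. From pl1 to pl2, which share a label, Rara differed by −0.53 and Rarg by −0.70. In pl5, 1 cell held 57.7% of the 26 Rara counts and 1 cell held 35.2% of the Rarg counts.

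Receptor transcripts were also present in some of the 572 cells with fewer than 2000 detected genes. These cells entered no comparison and had a median of 663.5 gene counts. Of them, 10.5% had a count of Rxra, 9.62% of Rarg, 1.57% of Rxrb and 1.399% of Rara. Rarb was counted in 1 of these cells and Rxrg in none. No receptor gene had a count in pl3 or pl4, where the medians were 0 and 71 gene counts.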

How the results depend on the processing

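Each group is 1 sample, so no replicate could be left out, and no paired analysis was possible because no result comes from a test. The log2 ratios below are given in the order OSalive to UOS, pl1 with pl2 to UOS and OSapop to OSalive, where the values were −0.06, 0.17 and 0.36 for Rxra and 0.03, −0.83 and 0.39 for Rarg. Median-of-ratios scaling gave 0.40, −0.056 and 0.19 for Rxra and 0.49, −1.06 and 0.22 for Rarg. The TMM factors of edgeR gave 0.38, −0.13 and 0.18 for Rxra and 0.47, −1.13 and 0.21 for Rarg. With totals over annotated genes, Rxra stood at 0.31 and 0.22 in the OSalive and OSapop ratios and Rarg at 0.41 and 0.26. The mean of single-cell CPM gave −0.10, 0.020 and 0.43 for Rxra and, in the ratios of the plates and of OSapop, −1.14 and 0.53 for Rarg. Thinning to 50000 counts gave 0.11, −1.42 and 0.51 for Rarg. Without the deepest cell of each group, the ratio of the plates was 0.31 for Rxra and −1.06 for Rarg, and that of OSapop was 0.43 for Rarg. A minimum of 4000 detected genes put the ratio of the plates at 0.29 for Rxra and −0.62 for Rarg. Without pl1 the same ratio was −1.08 for Rxra and −1.36 for Rarg, and without pl2 it was 0.48 and −0.66. Without cells above 100 CPM of other cell types' markers, an alternative chosen after seeing the data, Rxra stood at −0.15 in OSalive to UOS and 0.28 in OSapop to OSalive. Without cells above 100 CPM of Krt71 and interfollicular markers, also chosen after seeing the data, Rxra stood at −0.11 in OSalive to UOS. The cause of these moves was not tested, except that a left-out plate acts by its own cells.

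The share of cells with Rxra and Rarg together, 72.97% in UOS, 74.2% in OSalive and 82.4% in OSapop, followed the depth kept. It was 45.5%, 50.4% and 56.04% at 20000 counts, 82.4%, 86.3% and 92.4% at 100000 counts and 87.5%, 96.0% and 92.4% without thinning. When 5 counts were needed for a detection it was 16.2%, 18.5% and 24.7%. Over all 8 comparisons the Rarg ratio kept its sign under every alternative in LOS to UOS, OSapop to OSalive and the ratios of pl1 with pl2 to UOS, pl2 to pl1 and pl5 to pl1 with pl2. The share of all genes past 2-fold rose to between 42.3% and 67.3% with no minimum of counts.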

Other observations

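The partner and coregulator lists were also compared between OSapop and OSalive, with genes named after their values had been seen. Of 9 RXR partners with 100 counts, 1 was past 2-fold higher in OSapop and 3 were past 2-fold lower. Of all genes, 21.9% were past 2-fold either way, and 48.5% of those calls were higher. The fatty acid receptor gene Ppara stood at 6.82 CPM in OSapop and 1.124 CPM in OSalive, a log2 ratio of 2.6. In OSalive its counts came from 12 cells, 1 of which held 35.3% of them. How many cells of OSapop held its counts is not given here. Nr4a1 stood at 30.9 CPM in OSapop and 109.2 CPM in OSalive, a ratio of −1.82. Nr4a2 had a ratio of −2.44 and Nr1i3, a xenobiotic receptor gene, one of −1.03, both from levels below 2 CPM. None of the 15 coregulators was past 2-fold, and their median was 0.24 beside 0.12 for all genes.

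The 1 CatVII well whose labels name different stages passed the filter with 52544 gene counts. It held 4 counts of Rxra, 9 of Rarg and 1 of Rara, and none of Rxrb, Rxrg or Rarb.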
